A study of Mus musculus with 12 samples.

Results

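The immediate early genes described here were *Fos*, *Fosb*, *Fosl1*, *Fosl2*, *Jun*, *Junb*, *Egr1*, *Ier2*, *Dusp1* and *Zfp36*, 10 genes of the 45706 in the deposited count table. They were found by matching the mouse Ensembl identifiers of the table to GENCODE gene symbols, and all 10 passed the filter on low counts that left 17003 genes for testing. RNA was sequenced from 12 cultures of mouse cells, 3 in each of 4 groups. All were made from embryonic stem cells of strain C57BL/6 with GFP knocked into 1 copy of *Sox1*, an early neural stem cell factor. Baseline was made up of neural progenitor cells, labelled as glial progenitors negative for *Sox1*, and was not sorted. Sox1posGP was the same kind of progenitor taken as *Sox1* positive after the *Sox1* promoter had been targeted with dCas9-VP64, a transcriptional activator guided by RNA, and was sorted. NSC was made up of neuroepithelial cells early after neural induction and was not sorted. NR was labelled as neural rosette cells sorted for GFP, and the levels of its markers are given below. The study's methods describe clonal lines that express dCas9-VP64 and growth of the progenitors with bFGF, EGF and laminin, and its reporting summary says that each replicate came from another clonal line and day. Which line gave which library is not stated. Cells to be sorted were detached with Accutase and stained with a viability dye. The paper describes delivery of guide RNAs by plasmid or lentivirus, with puromycin selection of transduced cells. It does not state whether Baseline received guide RNAs or puromycin. Detachment, staining and sorting thus went together with the selection for GFP. In Sox1posGP they also went together with the activation of *Sox1* and any such delivery and selection. These cannot be told apart in this design.

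Immediate early genes are transcribed within minutes of a stimulus such as a growth factor, because the factors that switch them on are already in the cell. Serum response factor with its ternary complex partners, downstream of ERK signalling, and the cyclic AMP response element binding protein are the best known of these. The Fos and Jun proteins form the dimer AP-1, which binds DNA and drives the later wave of genes, while other members shorten the response. The same genes are known to be induced when tissue is dissociated and cells are handled, and in neural progenitors they are induced by EGF and bFGF.

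Promoter stretches of the members that match the elements known for these factors are given here as a description. Neither binding nor a part of these matches in the changes that follow was tested. RefSeq promoter windows of 7 of the 10 genes were searched. *Fosl1* and *Ier2* had no window and *Egr1* was left out of the search, so the counts of matches say nothing of these genes. Sites farther than 250 bases upstream were not looked for in any gene. In the 250 bases upstream of the start, the cyclic AMP response element TGACGTCA was looked for on both strands, with its shorter core TGACG, which the longer element contains, the AP-1 element TGANTCA, and the CArG box, which serum response factor binds. The core was found in 4 of the 7 genes (*Fos*, *Fosb*, *Junb* and *Dusp1*), the whole element in 1 of them (*Dusp1*), the CArG box in 1 (*Zfp36*) and the AP-1 element in 0. Of all 32851 RefSeq promoter windows 17.8% held the core, 1.55% the whole element, 1.47% a CArG box and 6.75% the AP-1 element. The stretches are printed on the strand of the gene, with the matched letters in capitals (GRCm38.p6). Offsets count from the RefSeq start of each window, which for *Zfp36* and *Dusp1* lies inside the longer GENCODE span of the gene given with its values, and all 28 bases shown for *Zfp36* lie in an exon of the GENCODE annotation.
*Fos*, chr12:85473741-85473850, plus strand, with cores that begin at -129 and -66 from the start: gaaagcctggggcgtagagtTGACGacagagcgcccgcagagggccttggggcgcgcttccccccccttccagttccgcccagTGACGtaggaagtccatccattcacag
*Fosb*, chr7:19310088-19310115, minus strand, with a core at -60: gagttgcgggTGACGcaagcgcgggggc
*Junb*, chr8:84978796-84978905, minus strand, with a core at -106: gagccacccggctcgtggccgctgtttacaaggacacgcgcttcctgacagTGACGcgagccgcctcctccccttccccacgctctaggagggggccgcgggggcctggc
*Dusp1*, chr17:26508580-26508689, minus strand, with a core at -191 and the whole element at -143: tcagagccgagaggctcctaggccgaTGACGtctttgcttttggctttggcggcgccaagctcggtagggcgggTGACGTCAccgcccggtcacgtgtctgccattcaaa
*Zfp36*, chr7:28379269-28379296, minus strand, with a CArG box at -58: ccaggccgccCCATAAAAGGagaaagct

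Totals ran from 3407066 counts in a Sox1posGP library to 43095688 in an NSC library, so low genes were measured least precisely in Sox1posGP. Values are given as CPM, counts relative to the library's total after TMM scaling. *Sox1* stood at 4.83, 6.00 and 5.43 CPM in Baseline and at 20.3, 20.9 and 21.7 CPM in Sox1posGP. In NSC it stood at 48.6, 64.9 and 51.8 CPM, whereas the libraries labelled NR, taken by a *Sox1* reporter, had 4.62, 20.001 and 19.2 CPM. The summed level of 5 pluripotency markers was 1326 to 2505 CPM in the libraries labelled NR, 43.2 to 129.6 CPM in NSC and at most 9.01 CPM in the progenitors. The summed level of 6 neural stem and progenitor markers was 749 to 1274 CPM in NR and 2129 to 2312 CPM in NSC. Markers of neural crest and mesenchyme summed to 797 to 2637 CPM in NSC and 1247 to 5764.5 CPM in NR, against at most 48.0 CPM in the progenitors. In NSC and NR this sum was nearly all *Col1a1* (means 848 and 1841 CPM) and *Col3a1* (1126 and 1738). *Prrx1* was at 10.9 and 19.2 CPM there, beside 0.610 in Baseline and 0.882 in Sox1posGP. *Twist1* was at 24.9 and 29.2 CPM, beside 18.7 and 17.7. The neural crest marker *Sox10*, at 0.385 and 0.563 CPM, was too low to be tested. Glial markers summed to 3161 to 3443 CPM in Baseline, 1493 to 1566 CPM in Sox1posGP and at most 87.1 CPM elsewhere. In the progenitors this sum was nearly all *Slc1a3* (mean 2605 CPM in Baseline and 1182 in Sox1posGP) and *Olig2* (684 and 331). The means of *Gfap*, *S100b*, *Aldh1l1* and *Aqp4* were higher in Sox1posGP (3.09, 18.4, 1.96 and 0.321 CPM) than in Baseline (2.25, 15.4, 0.660 and 0.0199 CPM). The median log2 fold change of the 6 glial markers in Sox1posGP against Baseline was 0.33. Microglial markers summed to at most 0.421 CPM in any library. Of 6 neuron markers 4 were higher and 1 lower in NSC than in Baseline, where 44.4% and 33.7% of all tested genes were called. *Tubb3* was at 253 CPM in NSC against 5.37, and *Map2* at 89.9 against 464. Of 3 tested endoderm markers 2 were higher and 1 lower. Every comparison with NR carries these differences in cell makeup, whose part in the results was not tested. The comparisons of Sox1posGP and of NSC with Baseline are without the NR libraries. They carry the marker differences between their own groups, whose part was not tested either. In bulk RNA, fewer cells that express a gene and less RNA per cell cannot be told apart.

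The first question was whether the sorted groups differed from those not sorted. In Sox1posGP *Junb*, *Egr1*, *Dusp1* and *Zfp36* rose over Baseline and *Fos*, *Fosb* and *Ier2* fell, by 1.35 to 2.21-fold. In NR *Ier2* and *Dusp1* rose over NSC and *Fos*, *Fosb*, *Jun* and *Egr1* fell, by 1.16 to 1.52-fold. Both of the sorted groups thus had less *Fos* and *Fosb* and more *Dusp1* than the group of their pair that was not sorted, while *Egr1* and *Ier2* went opposite ways. Against Baseline 4 of the 10 members were called higher and 3 lower at a p under 0.1 after Benjamini-Hochberg adjustment (quasi-likelihood test in edgeR), where 21.6% and 22.7% of all tested genes were called. Against NSC 2 were called higher and 4 lower, where 30.0% and 26.6% of all tested genes were. The median log2 fold change of the members was 0.33 in Sox1posGP and -0.04 in NR, and that of all tested genes was 0.00 and 0.01. These pairs share no library. Of all tested genes 5.75% were called higher in both, 6.99% lower in both and 12.7% in opposite directions, and among the 10 members these counts were 1, 2 and 2.

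**Figure D1:**
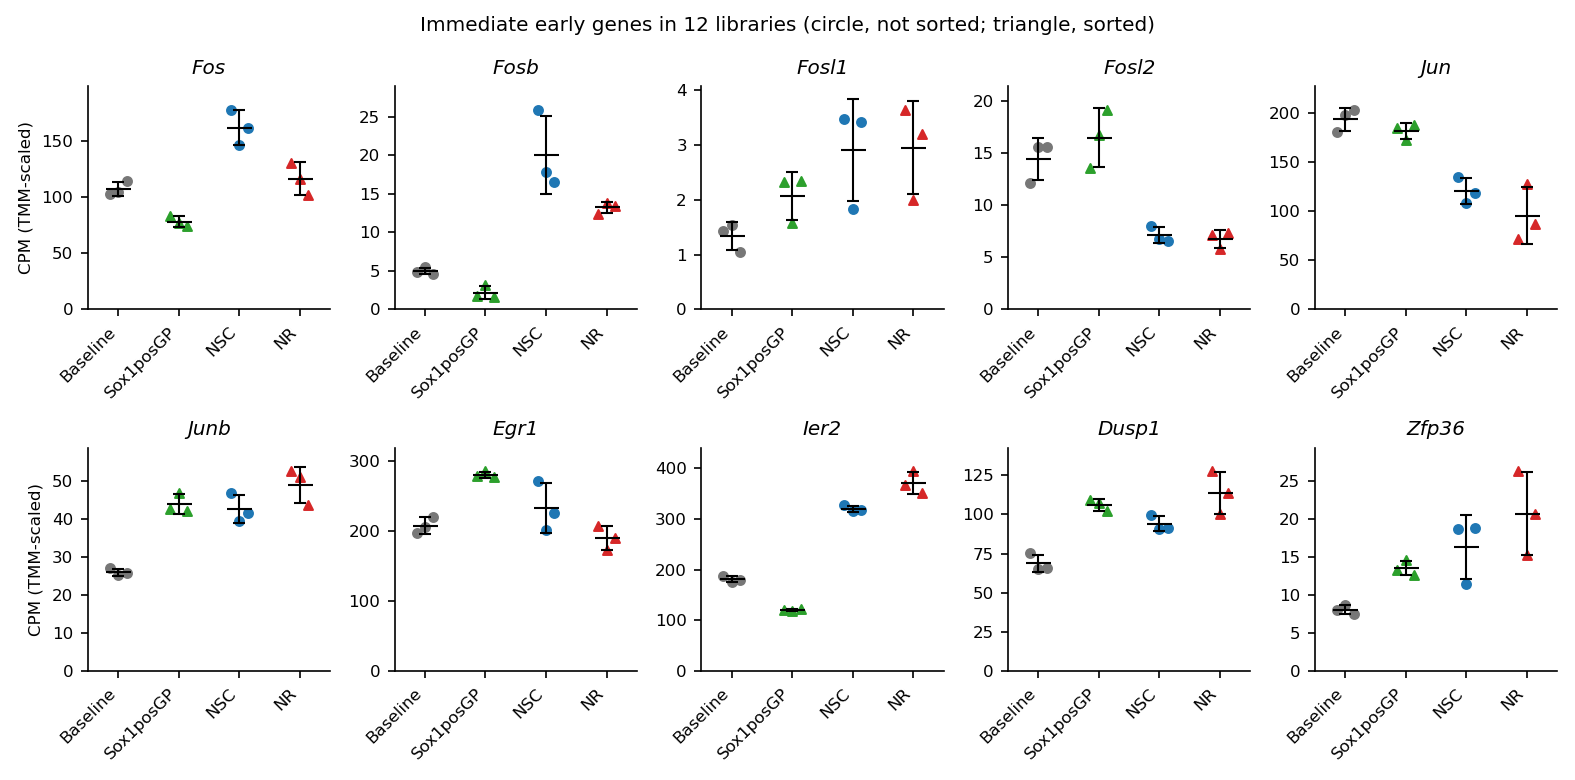
Level of each of the 10 immediate early genes in CPM (vertical axes from 0, scaled separately) in 3 libraries of each group, with the mean and SD in black. Circles mark groups that were not sorted and triangles sorted groups: *Fos* and *Fosb* are lower in each sorted group than in its partner, *Dusp1* is higher, and *Fosl2* and *Jun* are highest in the progenitors, Baseline and Sox1posGP.

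*Fos* (ENSMUSG00000021250, chromosome 12, 85473890 to 85477273, plus strand, GRCm38) encodes the founding partner of Jun in AP-1. Its level was 103, 105 and 115 CPM in Baseline and 83.4, 77.4 and 74.1 CPM in Sox1posGP. It was 178, 146 and 162 CPM in NSC and 131, 117 and 102 CPM in NR. In neither pair did the sorted libraries overlap those not sorted. The log2 fold change was -0.46 (SE 0.11, adjusted p = 0.00345) in Sox1posGP against Baseline and -0.48 (SE 0.10, adjusted p = 0.00142) in NR against NSC. The difference of these changes was 0.01 (SE 0.15, adjusted p = 0.975). In order of level Sox1posGP came lowest, then Baseline and NR, which did not differ beyond their spread (adjusted p = 0.326), then NSC.

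*Fosb* (ENSMUSG00000003545, chromosome 7, 19302696 to 19310051, minus strand) encodes a relative of Fos that also joins Jun in AP-1. It stood at 4.89, 5.44 and 4.59 CPM in Baseline and 1.74, 3.14 and 1.67 CPM in Sox1posGP, where 6, 20 and 10 counts lie behind these values. It stood at 25.9, 17.8 and 16.5 CPM in NSC and at 12.4, 13.9 and 13.4 CPM in NR. The groups kept the order of *Fos*, and here all neighbours differed and none overlapped. The fall was 2.21-fold in Sox1posGP (log2 fold change -1.15, SE 0.29, adjusted p = 0.00591) and 1.52-fold in NR (-0.60, SE 0.19, adjusted p = 0.0182). NSC library 1 carried part of the latter, which was -0.40 without it (adjusted p = 0.116).

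*Fosl1* (ENSMUSG00000024912, chromosome 19, 5447547 to 5455946, plus strand) and *Fosl2* (ENSMUSG00000029135, chromosome 5, 32135801 to 32157842, plus strand) encode the Fos-related antigens, which lack the strong activating part of Fos. *Fosl1* was the least abundant, at 1.43, 1.53 and 1.04 CPM in Baseline and 2.32, 1.57 and 2.34 CPM in Sox1posGP. In NSC it was at 3.47, 1.83 and 3.41 CPM and in NR at 3.63, 2.00 and 3.20 CPM. Of its 2033 exon bases 1163 also lie in exons of *Ccdc85b* on the other strand, which had 25.3 to 29.0 CPM in Baseline and 11.6 to 15.1 CPM in NSC. The library kit keeps no strand, so reads of these genes cannot be told apart in the shared bases. How such reads were counted is not stated. Neither sorted group differed detectably in *Fosl1* at this depth (log2 fold change 0.57, SE 0.41 and 0.00, SE 0.30). *Fosl2* was at 12.2, 15.6 and 15.7 CPM in Baseline and 13.6, 16.8 and 19.2 CPM in Sox1posGP. It was at 8.05, 6.80 and 6.58 CPM in NSC and 7.14, 5.81 and 7.33 CPM in NR. Every progenitor library was above every NSC and NR library, and within each pair the libraries overlapped (adjusted p = 0.395 and 0.710). In a fit of Sox1posGP and Baseline alone the former passed the threshold (0.31, adjusted p = 0.0882).

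*Jun* (ENSMUSG00000052684, chromosome 4, 95049034 to 95052222, minus strand), a gene of 1 exon, encodes the partner that can bind DNA in AP-1 with or without Fos. Its level was 180.2, 197 and 203 CPM in Baseline and 184, 172 and 188 CPM in Sox1posGP, and these libraries overlapped (log2 fold change -0.09, SE 0.16, adjusted p = 0.708). It was 134, 108 and 118 CPM in NSC and 71.4, 127 and 87.3 CPM in NR. NR library 2 lay inside the range of NSC and the other two lay under it. The log2 fold change of -0.33 in NR (SE 0.16) passed the threshold narrowly, with an adjusted p of 0.0993. It missed the threshold with DESeq2, with other scaling, with a stricter filter, in a fit of NSC and NR alone and without NSC library 1 or 3 or NR library 1 or 3, with adjusted p between 0.114 and 0.354, and without NR library 1 its size was -0.17.

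*Junb* (ENSMUSG00000052837, chromosome 8, 84974484 to 84978718, minus strand), whose coding transcript has 1 exon, encodes a weaker activator that can restrain Jun. It stood at 27.0, 25.1 and 25.7 CPM in Baseline, and each of the other groups was well above, with 42.6, 46.8 and 42.0 CPM in Sox1posGP, 46.6, 39.5 and 41.6 CPM in NSC and 52.4, 50.8 and 43.5 CPM in NR. Baseline was the group apart, and the other three did not differ from their neighbours in the order (adjusted p = 0.735 and 0.199). The rise in Sox1posGP was 1.69-fold (log2 fold change 0.76, SE 0.11, adjusted p = 1.1e-04). In NR against NSC it was 0.20 (SE 0.10, adjusted p = 0.117), and this value passed the threshold under upper-quartile scaling (0.25, adjusted p = 0.0448), under DESeq2 size factors (0.22, adjusted p = 0.0875), with at least 10 counts in every library (0.25, adjusted p = 0.0387) and without NSC library 1 (0.25, adjusted p = 0.0910) or NR library 3 (0.27, adjusted p = 0.0552). Of its exon bases 173 of 2301 are shared with *Prdx2* on the other strand. *Prdx2* stood at 297 ± 29.9 CPM in Baseline (SD, n = 3), 377 ± 7.74 in Sox1posGP, 599 ± 29.0 in NSC and 458 ± 55.6 in NR. It was thus more abundant than *Junb* and was also lowest in Baseline. Reads of these genes cannot be told apart in the shared bases, and their part in the values of *Junb* was not tested.

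*Egr1* (ENSMUSG00000038418, chromosome 18, 34859823 to 34864984, plus strand) encodes a zinc finger factor that follows ERK activity. Baseline had 196, 206 and 220.2 CPM and Sox1posGP 279, 285 and 277 CPM. NSC had 272, 201 and 225 CPM and NR 206, 173 and 190.4 CPM. Sox1posGP was above every other library, while the rest overlapped. The log2 fold change was 0.44 (SE 0.11, adjusted p = 0.00497) in Sox1posGP and -0.29 (SE 0.10, adjusted p = 0.0300) in NR, and the test of the difference gave 0.73 (SE 0.15, adjusted p = 0.00147). The value in NR rested on NSC library 1, without which it was -0.19 (adjusted p = 0.121).

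*Ier2* (ENSMUSG00000053560, chromosome 8, 84661331 to 84662852, minus strand), of 1 exon, encodes a short-lived nuclear protein. Its libraries were the closest to each other of all members in 3 of the 4 groups. Baseline had 188, 175 and 179.7 CPM and Sox1posGP 119.9, 118 and 121 CPM. NSC had 327, 315 and 318 CPM and NR 366, 394 and 350.4 CPM. None of the groups overlapped, and all neighbours in the order differed. The gene fell by 0.60 on the log2 scale in Sox1posGP (SE 0.07, adjusted p = 1.96e-05) and rose by 0.21 in NR (SE 0.07, adjusted p = 0.0202), a difference of -0.80 (SE 0.10, adjusted p = 2.87e-05). The rise in NR was not called with no filter on low counts (0.14, adjusted p = 0.412) or in a fit of NSC and NR alone (0.16, adjusted p = 0.148).

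*Dusp1* (ENSMUSG00000024190, chromosome 17, 26505590 to 26562128, minus strand) encodes a phosphatase that switches MAP kinases off, and its promoter stretch above was the one with the whole cyclic AMP response element. Baseline had 75.2, 65.4 and 65.9 CPM and Sox1posGP 109, 108 and 102 CPM. NSC had 99.5, 90.9 and 91.5 CPM and NR 128, 101 and 114 CPM. The sorted libraries were above those not sorted in both pairs, with log2 fold changes of 0.62 (SE 0.10, adjusted p = 2.12e-04) and 0.28 (SE 0.09, adjusted p = 0.0231). The latter was 0.19 without NR library 1 (adjusted p = 0.123), 0.20 with no filter on low counts (adjusted p = 0.215) and 0.23 in a fit of NSC and NR alone (adjusted p = 0.102).

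*Zfp36* (ENSMUSG00000044786, chromosome 7, 28376784 to 28380253, minus strand) encodes tristetraprolin, which brings AU-rich messages to decay, including that of *Fos*. It stood at 8.06, 8.65 and 7.51 CPM in Baseline and 13.3, 14.6 and 12.7 CPM in Sox1posGP, a rise of 1.67-fold with no overlap (log2 fold change 0.74, SE 0.24, adjusted p = 0.0276). It stood at 18.7, 11.5 and 18.8 CPM in NSC and 26.2, 15.2 and 20.6 CPM in NR, which overlapped (0.34, SE 0.21, adjusted p = 0.194). Without NR library 2 this value was 0.51 (adjusted p = 0.0383).

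**Figure D2:**
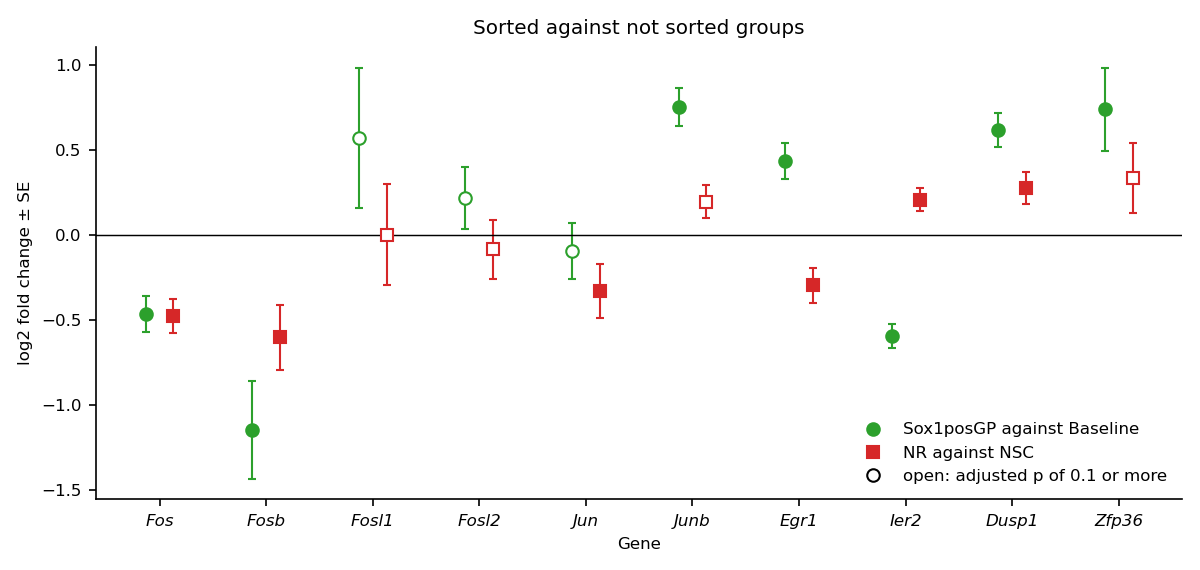
Log2 fold change of each immediate early gene with its standard error (vertical axis) in Sox1posGP against Baseline (circles) and in NR against NSC (squares), with open symbols for an adjusted p of 0.1 or more. *Fos* lies at -0.46 and -0.48, and *Egr1* and *Ier2* lie on opposite sides of 0 in the comparisons.

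The changes in the sorted pairs were then compared directly. The change in Sox1posGP exceeded that in NR for *Junb*, *Egr1* and *Dusp1* and lay under it for *Ier2*. These were 3 members called higher and 1 lower, where 24.0% and 24.4% of all tested genes were. For *Junb* the difference was 0.56 on the log2 scale (SE 0.15, adjusted p = 0.00864). For *Dusp1* it was 0.34 (SE 0.13, adjusted p = 0.0569), and this was not called without NR library 2 (0.26, adjusted p = 0.120), Baseline library 2 (0.33, adjusted p = 0.114), Baseline library 3 (0.31, adjusted p = 0.121) or Sox1posGP library 2 (0.33, adjusted p = 0.111). For *Fosb* it was -0.55 (SE 0.35, adjusted p = 0.231), and this passed without NSC library 1 (-0.73, adjusted p = 0.0946) or Sox1posGP library 2 (-0.95, adjusted p = 0.0658). For *Jun* it was 0.24 (adjusted p = 0.436) and passed without NR library 2 (0.50, adjusted p = 0.0138), and for *Zfp36* it was 0.41 (adjusted p = 0.337) and passed without NSC library 2 (0.64, adjusted p = 0.0712).

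The other immediate early genes moved in both directions as well. Of 34 listed, 33 were tested. In Sox1posGP 14 rose and 6 fell, with a median log2 fold change of 0.41, where 21.6% of all tested genes were called higher and 22.7% lower. Among those that rose were *Gadd45b*, a growth arrest and DNA damage response gene, at 21.9 ± 3.41 CPM against 7.61 ± 0.325 (SD, n = 3), *Klf2*, a Krüppel-like factor, at 21.8 ± 2.91 against 7.64 ± 0.222, *Nr4a2*, an orphan nuclear receptor, at 13.9 ± 1.04 against 5.42 ± 0.748, and *Plk2*, a Polo-like kinase, at 952 ± 48.4 against 413 ± 27.5. Among the genes that fell were *Ier3*, *Klf4* and *Myc*. *Ier3*, which encodes a regulator of survival, had 849, 333 and 193 counts in Baseline and 3, 3 and 2 counts in Sox1posGP. *Myc*, a driver of growth, was at 306 ± 11.0 CPM against 862 ± 90.9, and *Klf4* at 5.79 ± 0.781 against 33.5 ± 5.49.

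In NR 13 of the 33 rose over NSC and 10 fell, with a median of 0.12, where 30.0% and 26.6% of all tested genes were called. *Klf2* was at 411 ± 77.7 CPM in NR and 29.9 ± 6.89 in NSC, and *Klf4* at 35.4 ± 15.1 and 11.0 ± 2.45. Both of these encode factors that are part of the pluripotency network, whose markers were high in the libraries labelled NR. In Baseline, where the 5 pluripotency markers summed to at most 7.12 CPM, *Klf4* was at 33.5 ± 5.49 CPM and *Klf2* at 7.64 ± 0.222. The part of cell makeup in these values was not tested. *Egr2*, a relative of *Egr1*, was lower in NR (8.27 ± 1.04 CPM against 14.9 ± 4.36), as was *Btg2*, which restrains proliferation (99.1 ± 21.5 against 175 ± 3.89).

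Among other AP-1 and related bZIP genes, 9 of 10 listed were tested, 4 rose and 3 fell in Sox1posGP and 2 fell in NR, beside the same shares of all tested genes (21.6% higher and 22.7% lower in Sox1posGP, 26.6% lower in NR). *Atf3*, a repressor induced by stress, was at 12.8 ± 1.58 CPM in Sox1posGP and 63.7 ± 2.80 in Baseline. *Jdp2*, which represses AP-1, was at 5.81 ± 1.24 and 32.6 ± 3.73. *Maff*, a small Maf protein, was on the opposite side at 22.0 ± 4.01 and 6.56 ± 0.778. *Mafk* and *Atf2* were the ones that fell in NR.

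Of the regulators that switch immediate early genes on, *Crtc2*, a coactivator of the cyclic AMP response element binding protein, was at 137 ± 4.27 CPM in Sox1posGP and 56.3 ± 5.18 in Baseline (log2 fold change 1.28, SE 0.09). The ternary complex factors *Elk3* and *Elk1* rose with it, by 0.80 (SE 0.11) and 0.65 (SE 0.12). In all 5 of 9 regulators rose and 1 fell in Sox1posGP, where 21.6% and 22.7% of all tested genes were called. In NR 3 rose and 3 fell, where 30.0% and 26.6% of all tested genes were called. *Elk1* rose there too (0.83, SE 0.11), and *Creb1*, which encodes that binding protein, fell from 82.2 ± 6.58 to 44.1 ± 4.9996 CPM. Among 10 targets and brakes of ERK signalling 5 rose and 1 fell in Sox1posGP, led by the phosphatase *Dusp4* at 73.9 ± 3.91 CPM against 10.2 ± 0.835. In NR 2 rose, the factors *Etv5* and *Etv4*, and 5 fell, with *Dusp4* at 102 ± 24.6 CPM against 163 ± 13.1. The counts for ERK signalling stand beside the same shares of all tested genes.

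Heat shock genes encode chaperones that respond to protein stress. In each sorted pair 9 of 12 rose and the other 3 did not pass the test, with a median log2 fold change of 0.48 in Sox1posGP and 0.65 in NR. Between groups of the same sorting status, 10 of 12 were higher in NSC than in Baseline (median 0.95) and 9 of 12 higher in NR than in Sox1posGP (median 1.04). Of all tested genes 21.6% were called higher in Sox1posGP against Baseline and 30.0% in NR against NSC. In NSC against Baseline and in NR against Sox1posGP it was 44.4% each, with medians over all tested genes of 0.20 and 0.19. *Bag3*, a partner of Hsp70, was at 20.1 ± 2.18 CPM in Sox1posGP against 1.40 ± 0.128, and at 50.2 ± 15.8 CPM in NR against 18.6 ± 0.787. *Hspa8*, the Hsp70 present in all cells, rose by 0.76 (SE 0.13) and 0.99 (SE 0.13) on the log2 scale. Their part in the changes of the immediate early genes was not tested.

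**Figure D3:**
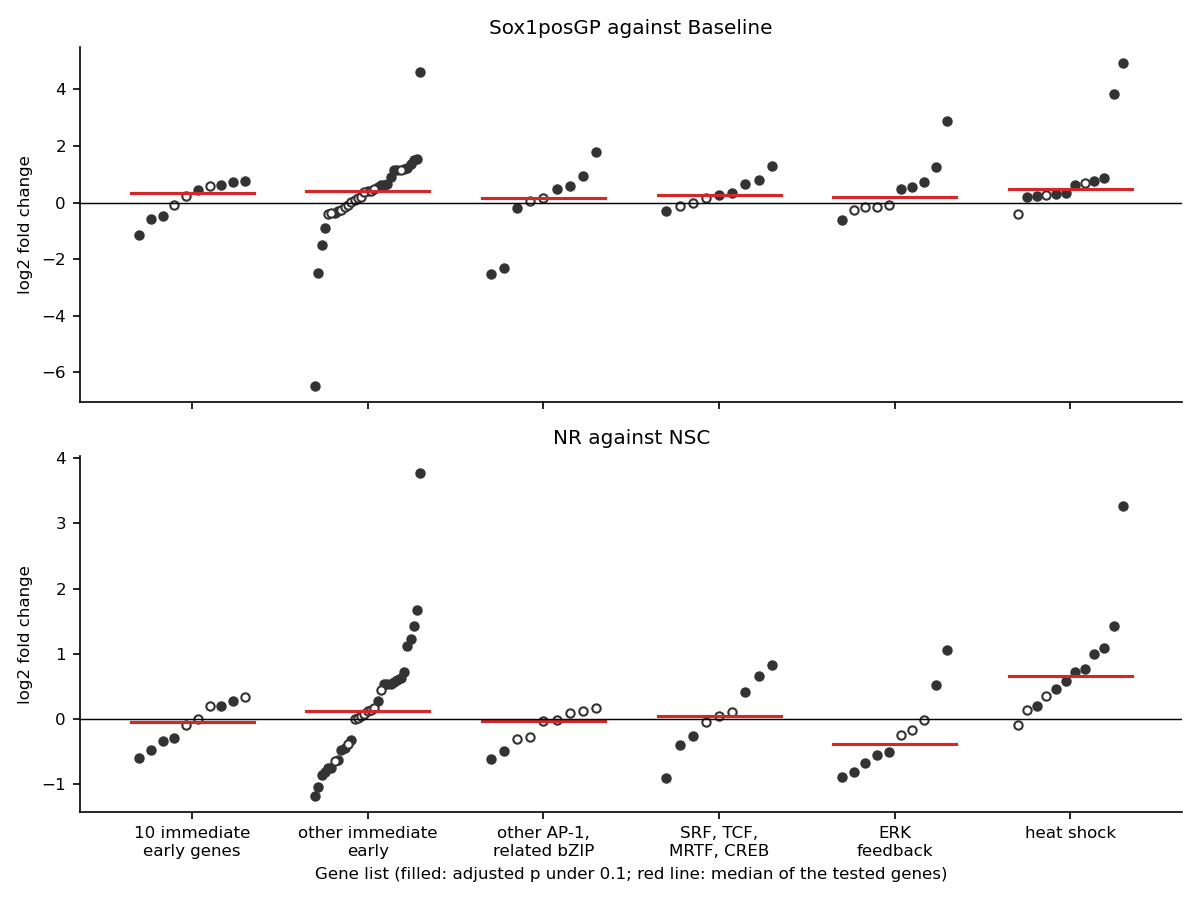
Log2 fold change (vertical axes, scaled separately) of the tested genes of each list in Sox1posGP against Baseline (upper) and NR against NSC (lower), in order within each list, with a red line at the median. Filled points had an adjusted p under 0.1: the members lie on both sides of 0, with medians of 0.33 and -0.04, and the heat shock genes lie mostly above it, with medians of 0.48 and 0.65.

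The second question was how NSC and the libraries labelled NR differed from the progenitors at the same sorting status. In NSC, 7 members were higher than in Baseline (*Fos*, *Fosb*, *Fosl1*, *Junb*, *Ier2*, *Dusp1* and *Zfp36*) and 2 lower (*Fosl2* and *Jun*), where 44.4% and 33.7% of all tested genes were called. Between the sorted groups *Fos*, *Fosb*, *Ier2* and *Zfp36* were higher in NR than in Sox1posGP and *Fosl2*, *Jun* and *Egr1* lower, 4 and 3 members where 44.4% and 32.0% of all tested genes were called. The median of all tested genes was itself 0.20 and 0.19, and that of the members 0.65 and 0.34.

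*Fosb* showed the largest difference among the members in both. Its log2 fold change was 2.01 (SE 0.22, adjusted p = 1.56e-06) in NSC and 2.55 (SE 0.26, adjusted p = 9.95e-07) in NR, which are 4.02-fold and 5.87-fold. *Ier2* followed in NR with 1.63 (SE 0.07, adjusted p = 3.25e-10), beside 0.82 (SE 0.07) in NSC. *Fos* was higher by 0.59 (SE 0.10) and 0.58 (SE 0.10).

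*Fosl2* and *Jun* were lower in NSC than in Baseline and in the libraries labelled NR than in Sox1posGP. For *Fosl2* the log2 fold change was -1.003 (SE 0.18, adjusted p = 1.57e-04) in NSC and -1.30 (SE 0.18, adjusted p = 2.01e-05) in NR. For *Jun* it was -0.68 (SE 0.16, adjusted p = 0.00157) and -0.92 (SE 0.16, adjusted p = 1.69e-04). In both genes no library of NSC or NR reached a progenitor library.

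The feedback genes were higher in NSC than in Baseline, *Dusp1* by 0.44 (SE 0.10, adjusted p = 8.21e-04) and *Zfp36* by 1.01 (SE 0.23, adjusted p = 0.00114). Between the sorted groups *Dusp1* did not differ beyond the spread (0.10, SE 0.10, adjusted p = 0.354) unless NR library 2 was left out (0.19, adjusted p = 0.0852), and the value for *Zfp36*, 0.60 (SE 0.23, adjusted p = 0.0268), was lost without NR library 1 (0.38, adjusted p = 0.131). Of the other members not called there, *Fosl1* passed without NR library 2 (0.74, adjusted p = 0.0775) and *Junb* with at least 10 counts in every library (0.22, adjusted p = 0.0604). *Egr1* in NSC was 0.17 above Baseline (SE 0.10, adjusted p = 0.161), and this passed the threshold with no filter on low counts (0.26, adjusted p = 0.0447), with at least 10 counts in every library (0.25, adjusted p = 0.0447), with DESeq2 size factors (0.21, adjusted p = 0.0926) and without NSC library 2 (0.26, adjusted p = 0.0279).

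**Figure D4:**
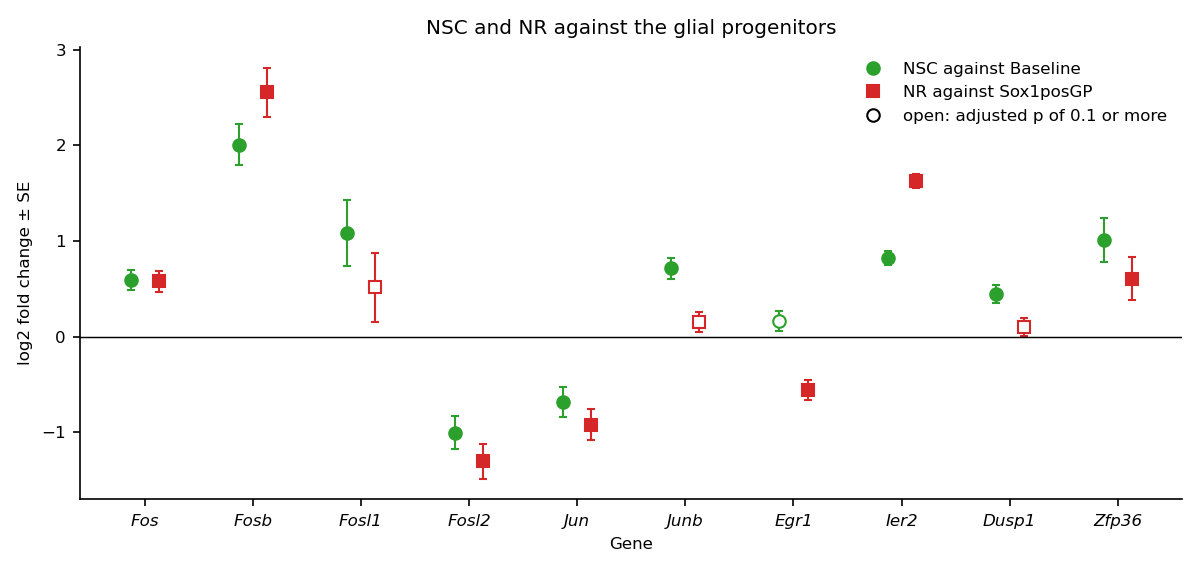
Log2 fold change with its standard error (vertical axis) of each immediate early gene in NSC against Baseline, neither of them sorted (circles), and in NR against Sox1posGP, both sorted (squares), with open symbols for an adjusted p of 0.1 or more. *Fosb* lies highest at 2.01 and 2.55, and *Fosl2* and *Jun* lie under 0 in both.

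The groups with the lowest and the highest mean level differed between the members, and several neighbours in these orders did not differ beyond their spread. *Junb*, *Dusp1*, *Zfp36* and *Fosl1* were lowest in Baseline and highest in NR. *Fos* and *Fosb* were lowest in Sox1posGP and highest in NSC, and *Ier2* was lowest in Sox1posGP and highest in NR. *Fosl2* and *Jun* were lowest in NR, with *Fosl2* highest in Sox1posGP and *Jun* in Baseline, and *Egr1* was lowest in NR and highest in Sox1posGP. The crosswise comparisons, between a sorted and a group not sorted of different cells, called 73.2% of all tested genes between NSC and Sox1posGP and 79.8% between NR and Baseline. In the former *Junb*, *Dusp1*, *Zfp36* and *Fosl1* did not pass the test (adjusted p = 0.735, 0.116, 0.303 and 0.217), and in the latter *Fos* and *Egr1* did not (adjusted p = 0.326 and 0.286).

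The spread between libraries differed among the groups. The median SD of log2 CPM over 3 libraries was 0.0949 in Baseline, 0.0854 in Sox1posGP, 0.156 in NSC and 0.176 in NR, beside 0.158, 0.139, 0.170 and 0.207 over all tested genes. Over the 11763 tested genes with a mean at least that of the lowest member it was 0.127, 0.106, 0.130 and 0.158, so that against these the members had the smaller median in Baseline and Sox1posGP and the larger in NSC and NR. *Ier2* in Sox1posGP had the smallest, at 0.0201, and *Fosl1* in NSC the largest, at 0.505.

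On the scale of level per kb of exon, which allows genes to be compared, *Ier2* led the members in each group, with 119 ± 4.18 CPM per kb in Baseline, 78.7 ± 1.098 in Sox1posGP, 210.3 ± 4.12 in NSC and 243 ± 14.4 in NR. Its mean over all libraries was at the 98.6th percentile of 16927 tested genes with a length, and *Fos*, *Jun* and *Egr1* were at the 92.8th, 92.2nd and 93.1st. The rear was taken by *Fosl1* in Baseline (0.658 ± 0.127 CPM per kb), *Fosb* in Sox1posGP (0.349 ± 0.133) and *Fosl2* in NSC and NR (0.738 ± 0.0820 and 0.698 ± 0.0859). The length used for *Fosl1* includes the bases shared with *Ccdc85b*, so its level per kb is uncertain. In the progenitors *Jun* was above *Fos* per kb (60.7 ± 3.71 against 45.9 ± 2.64 in Baseline), and in NSC *Fos* was above *Jun* (69.0 ± 6.72 against 37.7 ± 4.15).

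The Fos family was made up mainly of *Fos*, with 91.5% to 93.9% of its summed level per kb in each group mean. *Fosb* took 1.64% ± 0.201 in Baseline and 0.964% ± 0.378 in Sox1posGP, and 4.29% ± 0.726 in NSC and 3.98% ± 0.622 in NR. *Fosl2* went the other way, with 3.06% ± 0.342 and 4.73% ± 1.01 in the progenitors and 0.994% ± 0.0679 and 1.31% ± 0.242 in NSC and NR. In the Jun family *Jund*, a constitutive relative that is not a member, took 58.2% to 65.4%. The share of *Jun* was 35.2% ± 1.19 in Baseline, 30.1% ± 1.11 in Sox1posGP, 24.5% ± 2.50 in NSC and 19.97% ± 3.51 in NR, and that of *Junb* was 6.58% ± 0.844, 10.1% ± 0.829, 12.0% ± 0.936 and 14.6% ± 2.82. These shares are given as a description, with no test.

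**Figure D5:**
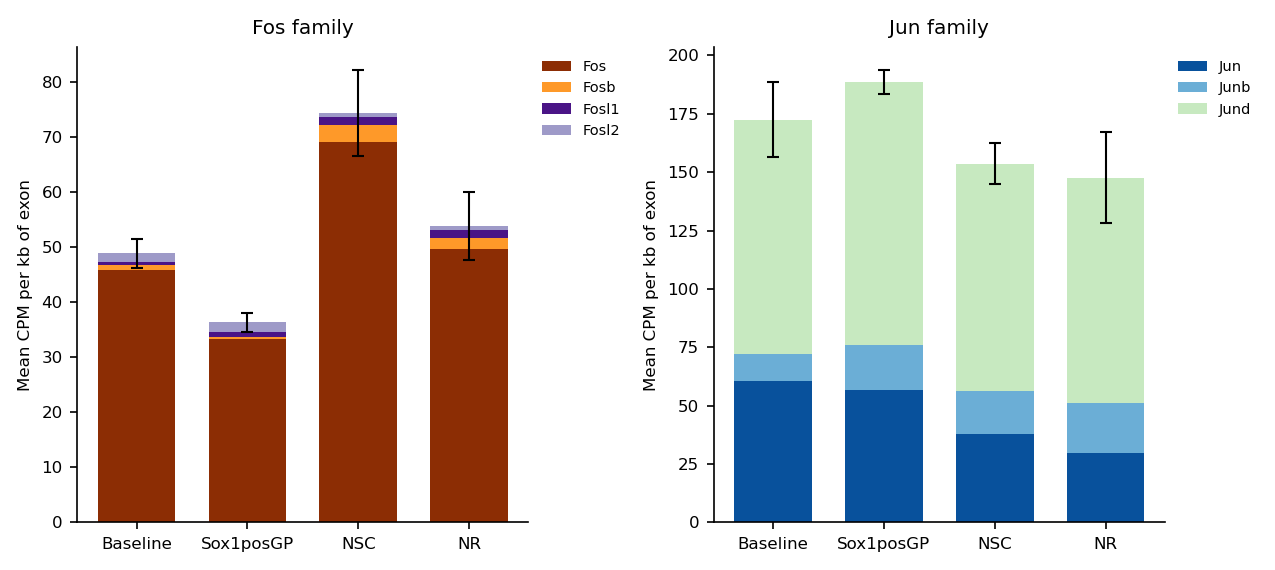
Mean CPM per kb of exon (vertical axes from 0) of the genes of the Fos family (left) and Jun family (right), stacked for each group, with the SD over 3 libraries of the family's sum. The Fos sum is 48.8 in Baseline, 36.4 in Sox1posGP, 74.3 in NSC and 53.8 in NR and is nearly all *Fos*; in the Jun family the share of *Jun* is 35.2% in Baseline and 19.97% in NR.

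The genes with the pattern most like that of 3 members over the 12 libraries, by Pearson's r of log2 CPM, are given as a description, since libraries of a group share their cells and depth. For *Fos* they were *Hnrnpu*, *Ddx42* and *Ptprf* (r = 0.98, 0.96 and 0.96). For *Jun* they were *Sox5*, *Dhdds* and *Epm2aip1* (r = 0.98, 0.97 and 0.97), with *Sox5* at 83.0 ± 3.94 CPM in Baseline and 9.57 ± 4.70 in NR. For *Egr1* they were *Id1*, *Zfp651* and *Kdm2a* (r = 0.92, 0.91 and 0.91), with *Id1* at 76.8 ± 7.47 CPM in Sox1posGP and 32.2 ± 3.998 in NR.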

How the data were processed

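RNA was prepared by the authors with PicoPure columns and the SMART-Seq v4 kit, which keeps no strand, and they deposited raw counts of reads per Ensembl gene. The submitters' processing notes name STAR 2.6, RSEM 1.1.14 and mm10, with no role, and the counts were whole numbers. The strand setting and annotation of the counting are not given in the sources used here. Symbols, positions and exon lengths came from GENCODE for GRCm38. The 563 identifiers without a symbol held 0.124% of the counts.

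Counts were scaled by TMM and filtered by filterByExpr, and edgeR 4.0.16 (R 4.3.3) was run with glmQLFit and glmQLFTest on all 12 libraries with no block and a prior count of 0.125, with adjustment by Benjamini and Hochberg over 17003 genes and a threshold of 0.1. Standard errors were taken from the log2 fold change and its F statistic. Tests on simulated data for Sox1posGP against Baseline with 17003 genes called 86% of 100 genes changed by 1 on the log2 scale and 100% of 100 changed by 2, with 13 false calls. The changed genes were drawn only from those above a floor of expected counts in the shallowest library. These rates thus do not cover genes with counts as low as those of *Fosl1*, changes smaller than 1 or the other comparisons. Among the members in the sorted pairs, only the fall of *Fosb* in Sox1posGP was larger than 1. Log2 CPM had a prior count of 2. Figures were drawn with matplotlib 3.10.9.

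Same-numbered libraries of NSC and NR deviated together (correlations of deviations from the group means of 0.229, 0.490 and 0.296), and those of Baseline and Sox1posGP did not (0.0236, 0.00821 and 0.0198). The pairing comes from the numbers in the labels, and a fit with the number as a block changed 0 of 50 calls. That block gave the same effect of a number to all groups, so it cannot settle a pairing of NSC with NR only, which was not fitted.

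The genes named are all 10 members and, for each further list and comparison, at most 4 called higher and 4 called lower with the largest change and a mean of at least 1 CPM in a group. The members, lists and tests were chosen with earlier results of these data known. Alternatives were DESeq2 1.42.0, other scaling, filters and thresholds, the block, fits of the groups compared, and the omission of each library.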

Additional observations from a re-analysis of the deposited data

Results flagged for a closer look

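The change in Sox1posGP against Baseline differed from that in NR against NSC by the interaction term of edgeR's quasi-likelihood fit for 4 members. On the log2 scale the difference was 0.56 for *Junb*, 0.73 for *Egr1*, -0.80 for *Ier2* and 0.34 for *Dusp1*. The difference for *Dusp1* was not called when some single libraries were left out, as given above. *Egr1* was higher in all 3 Sox1posGP libraries than in any Baseline library and overlapped between NR and NSC, and *Ier2* was lower in all 3 Sox1posGP libraries and higher in all 3 NR libraries than in their partners. That rise of *Ier2* in NR was not called with no filter on low counts or in a fit of NSC and NR alone. The difference in cell makeup between the pairs was not tested as a part of these values.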

How the results depend on the processing

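The counts of members called lower and higher were within 1.5 times under DESeq2, DESeq2 size factors, upper-quartile scaling, the replicate block and a threshold of 0.05, with the block giving 4 higher and 3 lower in Sox1posGP and 2 higher and 4 lower in NR. In NR against NSC the count higher was 0 with no filter on low counts and 0 in a fit of those groups alone, with 0 at an unadjusted p under 0.05 in either and 2 under DESeq2 with its own filter, and the count lower was 2 with at least 10 counts in every library, where *Fosb* had too few counts to be tested and *Jun* missed the threshold. With a fold over 4 added, the count was 1 (*Fosb*) for higher in NSC against Baseline and in NR against Sox1posGP and 0 elsewhere, also at an unadjusted p under 0.05 and with DESeq2. Leaving out a library gave 1 to 3 higher and 1 to 4 lower in NR against NSC, the lowest without NR library 1 and NSC library 1, and 1 to 2 lower and 2 to 4 higher in the difference of the pairs. Reversed values were those of *Fosl1* in NR against NSC, -0.0762 with no filter, -0.0457 in a fit of the groups alone and between -0.256 and 0.218 over the omission of each library; of *Fos* in the difference of the pairs, between -0.0489 and 0.114 over the omissions; of *Dusp1* in NR against Sox1posGP, between -0.00549 and 0.191; and of *Fosl2* in NR against NSC, between -0.164 and 0.0142. None of these values had been called in the fit of all libraries. The cause was not tested. Depth limits *Fosl1* and *Fosb* most, with 5 to 24 and 22 to 82 counts in Baseline and 8 to 14 and 6 to 20 in Sox1posGP.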
